A study of Rattus norvegicus with 72 samples.

Results

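The genes described here encode the proteasome, its activators and the factors that assemble it, in primary rat hepatocytes exposed to 8 compounds for 24 h or 72 h. The members were taken by name: every probe set whose single gene symbol in the platform annotation begins with Psma, Psmb, Psmc, Psmd, Psme or Psmg, which gave 59 of the 31099 probe sets on the array and 45 gene symbols. A filter on low values kept 54 of them among 18048 probe sets, with at least 1 probe set for each of the 45 genes. The 5 that were not kept were 2 probe sets of Psmb5 and 1 each of Psmc4, Psmd11 and Psme1. By role, the 45 genes comprised 7 subunits of the alpha ring, 4 structural subunits of the beta ring, 2 constitutive catalytic subunits (Psmb5 and Psmb7), 3 immune catalytic subunits (Psmb8, Psmb9 and Psmb10), 6 ATPases and 11 other subunits of the regulatory cap, 2 subunits of the activator PA28 (Psme1 and Psme2), the activator PA200 (Psme4) and 7 assembly factors. The remaining 2, Psmc3ip, a cofactor of meiotic recombination, and Psme3ip1, a partner of the PA28 gamma activator, share the prefix without being subunits, which left 43 genes of the complex and its helpers. The catalytic subunit gene Psmb6 and the activator gene Psme3 were named only on probe sets with several symbols, so they were no members.

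The proteasome is the cell's main machine for breaking down proteins tagged with ubiquitin. Its barrel, the 20S core, is built of outer alpha rings, which form the gate, and inner beta rings, in which Psmb5, Psmb6 and Psmb7 carry the cutting sites. The 19S cap on the barrel holds a ring of ATPases (Psmc genes) that unfold the substrate and further subunits (Psmd genes) that recognise ubiquitin chains, such as Psmd4, or remove them, such as Psmd14. Interferon-gamma induces Psmb8, Psmb9 and Psmb10, which replace the constitutive cutting subunits in the immunoproteasome, together with the PA28 activator, and these forms supply peptides for presentation on MHC class I. When proteasome activity runs short, the transcription factor encoded by Nfe2l1 raises the subunit genes together, and in liver the related factor Nfe2l2 (NRF2), the regulator of oxidative defence, can raise some of them too.

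The hepatocytes were grown as a monolayer on plastic and exposed within a day of plating, and the strain, sex and age of the rats are not given in the labels. Of the compounds, the series' design text classes aflatoxin B1 (19 nM), NNK (625 µM), a nitrosamine of tobacco, and 2-nitrofluorene (78 µM) as genotoxic carcinogens. It classes methapyrilene (8.5 µM), piperonyl butoxide (13.4 µM) and Wy-14643 (250 µM) as non-genotoxic carcinogens, and nifedipine (156 µM) and clonidine (277 µM) as non-carcinogens. Each compound was given at 1 dose, and each of the 24 groups (8 compounds and 4 control groups at 2 times) had 3 arrays, which the protocol calls independent biological experiments. Aflatoxin B1, Wy-14643 and clonidine shared 1 control group at each time, 2-nitrofluorene, piperonyl butoxide and nifedipine shared another, and NNK and methapyrilene each had their own. By the titles, the arrays of NNK and its controls carry the same numbers as those of the 2-nitrofluorene set, D7, D8 and D9. What these numbers stand for is not given in the labels. Comparisons with a shared control also share its chance deviations, and the vehicle is not given in the labels.

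Array medians ranged from 15.76 to 23.8 intensity units over the 72 arrays. On 10 arrays the log2 ratio of the 3′ to the 5′ beta-actin probe sets, a sign of RNA quality, was 1.84 to 2.71, against 0.36 to 1.11 on the others. These 10 were all 8 arrays titled D3 (the third array of every aflatoxin B1, Wy-14643, clonidine and shared control group), the first aflatoxin B1 array at 24 h and the second at 72 h. In the D3 arrays the 72 h minus 24 h score over 3937 probe sets that move with culture time was -0.66 to -0.35 in the 4 pairs, the opposite sign to 0.35 to 1.23 in 23 other pairs, so the labelled times of these 8 arrays go against the rest. The members' median differences and the calls of single members in this set are given with and without them. The 11 measured hepatocyte markers were above the floor on every array, with means of 5892 for Alb (albumin) and 4972 for Ttr. Since RNA was taken from whole cultures, a change in the number of cells of a type and a change in RNA per cell cannot be told apart.

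Promoters are shown for 7 genes on which the results turn: the immune catalytic genes and the PA28 gene Psme2, which interferon is known to induce, the constitutive Psmb5, and the cap genes Psmd13 and Psmc1, which were called most often. They are RefSeq sequences on build GRCr8, 250 bases before and 50 after the annotated start, printed 5′ to 3′ on the gene's strand, with matched motifs in capitals. Psmb8 lies at chr20:4656982-4657281 (minus strand), Psmb9 at chr20:4668750-4669049 (plus), Psmb10 at chr19:50743243-50743542 (minus) and Psme2 at chr15:33052702-33053001 (minus). Psmb5 lies at chr15:32047330-32047629 (minus), Psmd13 at chr1:205393998-205394297 (plus) and Psmc1 at chr6:125122247-125122546 (plus).
Psmb8: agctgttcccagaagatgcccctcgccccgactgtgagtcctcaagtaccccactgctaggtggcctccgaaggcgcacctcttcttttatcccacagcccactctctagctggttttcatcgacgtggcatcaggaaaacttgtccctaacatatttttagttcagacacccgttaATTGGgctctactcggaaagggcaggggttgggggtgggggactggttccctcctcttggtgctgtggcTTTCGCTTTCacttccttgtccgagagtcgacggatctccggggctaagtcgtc
Psmb9: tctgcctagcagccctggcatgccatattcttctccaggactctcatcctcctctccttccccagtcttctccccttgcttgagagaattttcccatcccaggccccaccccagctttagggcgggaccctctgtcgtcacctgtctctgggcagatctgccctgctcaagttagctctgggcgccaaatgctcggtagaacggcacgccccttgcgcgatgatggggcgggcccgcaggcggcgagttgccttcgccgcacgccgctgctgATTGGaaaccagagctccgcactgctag
Psmb10: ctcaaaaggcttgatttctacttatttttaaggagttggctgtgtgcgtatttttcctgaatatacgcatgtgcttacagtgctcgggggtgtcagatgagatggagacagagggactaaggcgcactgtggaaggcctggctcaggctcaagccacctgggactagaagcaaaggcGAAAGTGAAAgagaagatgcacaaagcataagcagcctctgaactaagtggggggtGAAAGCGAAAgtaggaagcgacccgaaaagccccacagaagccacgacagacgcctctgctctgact
Psme2: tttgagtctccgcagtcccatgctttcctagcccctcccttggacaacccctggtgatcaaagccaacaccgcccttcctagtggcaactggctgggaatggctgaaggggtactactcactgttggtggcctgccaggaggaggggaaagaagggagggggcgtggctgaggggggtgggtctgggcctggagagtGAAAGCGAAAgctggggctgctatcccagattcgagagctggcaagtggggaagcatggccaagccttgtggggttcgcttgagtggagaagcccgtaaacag
Psmb5: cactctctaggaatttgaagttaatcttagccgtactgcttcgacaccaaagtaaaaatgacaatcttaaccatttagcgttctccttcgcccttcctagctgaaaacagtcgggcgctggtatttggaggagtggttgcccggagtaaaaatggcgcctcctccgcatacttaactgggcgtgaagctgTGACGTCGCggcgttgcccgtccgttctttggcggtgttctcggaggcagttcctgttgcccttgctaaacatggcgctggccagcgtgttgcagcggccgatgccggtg
Psmd13: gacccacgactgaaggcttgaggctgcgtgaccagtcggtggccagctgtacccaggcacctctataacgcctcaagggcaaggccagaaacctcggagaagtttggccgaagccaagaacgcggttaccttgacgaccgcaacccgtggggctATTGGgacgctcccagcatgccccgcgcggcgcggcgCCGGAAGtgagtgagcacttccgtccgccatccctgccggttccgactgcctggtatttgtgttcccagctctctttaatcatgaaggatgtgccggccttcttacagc
Psmc1: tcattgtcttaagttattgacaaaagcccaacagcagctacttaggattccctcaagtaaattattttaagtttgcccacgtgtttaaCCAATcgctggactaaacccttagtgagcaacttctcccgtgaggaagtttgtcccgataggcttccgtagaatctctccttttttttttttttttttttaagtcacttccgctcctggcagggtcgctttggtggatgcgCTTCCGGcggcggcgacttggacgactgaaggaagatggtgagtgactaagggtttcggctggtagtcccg

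The 4 motifs below were searched on both strands in the promoters of 41 of the 45 genes and in all 33469 promoters of the table. The interferon-stimulated response element, searched as GAAA, any 2 bases and GAAA, was in 7 of the 41 (17.1%) and in 3.92% of all promoters. The match ran from -53 to -44 in Psme2, from -4 to 5 in Psmb8, and from -73 to -64 and -17 to -8 in Psmb10, while Psmb9 and Psme1 had no match in their windows. The others with a match were the core genes Psma4 and Psmb3, the cap gene Psmd7 and the assembly gene Psmg4. CCGGAAG, the core bound by ETS factors, was in 15 (36.6% against 8.75%), among them Psmd13, Psmc1 and the cap genes Psmc2, Psmc6, Psmd4, Psmd7 and Psmd11. The rest were Psma6, Psmb4, Psmb7, Psme4, Psmg1, Psmg3 and the genes that are no subunits, Psmc3ip and Psme3ip1. CCAAT, the NF-Y box, was in 21 (51.2% against 37.5%), Psmd13, Psmc1, Psmb8 and Psmb9 among them. TGACNNNGC, the core of the antioxidant response element to which NFE2L1 and NFE2L2 bind, was in 7 (17.1% against 12.1%), including Psmb5, where it ran from -60 to -52. In the 7 printed promoters no matches overlapped, and a match is only a description of the letters.

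After 24 h of exposure most proteasome genes were slightly higher with compound than in control. The size was largest with 2-nitrofluorene, at a median log2 difference of 0.24 over the 54 probe sets (48 of 54 higher), against -0.041 over all 18048. The medians were 0.19 with piperonyl butoxide, 0.15 with nifedipine, 0.17 with aflatoxin B1, 0.14 with Wy-14643, 0.094 with clonidine, 0.15 with methapyrilene and 0.079 with NNK. The corresponding medians over all probe sets lay between -0.045 and 0.013, and a log2 difference of 0.243 is small beside the changes of single genes below. By array number, the 3 differences between treated and control medians were 0.30, 0.28 and 0.25 with 2-nitrofluorene, 0.30, 0.13 and 0.16 with piperonyl butoxide and 0.28, 0.062 and 0.12 with nifedipine. These 3 compounds were read against the same controls, so they are not separate results. The first control had the lowest median log2 value of the members (9.148 against 9.326 and 9.324). With single arrays left out the medians ranged from 0.199 to 0.29, 0.137 to 0.218 and 0.089 to 0.197, in the same order. The lowest for piperonyl butoxide and nifedipine came without that control. In the set with the D3 arrays the third difference was the lowest for each compound, at 0.32, 0.17 and 0.016 with aflatoxin B1, 0.19, 0.18 and 0.086 with Wy-14643 and 0.16, 0.083 and 0.006 with clonidine. Without the D3 arrays the medians at 24 h were 0.262 with aflatoxin B1, 0.182 with Wy-14643 and 0.111 with clonidine, and with single arrays left out that of clonidine ranged from -0.002 to 0.174. Methapyrilene gave 0.20, 0.089 and 0.16 and NNK 0.038, 0.12 and 0.12.

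At 72 h the medians spread further apart. They were highest with NNK, at 0.23 (46 of 54 higher), Wy-14643, at 0.21 (44 of 54), and aflatoxin B1, at 0.16 (42 of 54). With methapyrilene the median was 0.091, with clonidine 0.052, with piperonyl butoxide 0.041, with nifedipine 0.036 and with 2-nitrofluorene -0.018 (23 of 54 higher). The median over all probe sets was -0.065 with 2-nitrofluorene, where 40.1% of them and 42.6% of the members were higher. With nifedipine it was -0.066, and the shares were 42.6% and 59.3%. For the other compounds it lay between -0.028 and 0.009. The member median with 2-nitrofluorene was therefore not below that of all probe sets. The 3 arrays of a group did not weigh alike. The differences by array number were 0.24, 0.14 and 0.21 with NNK, but -0.002, 0.35 and 0.26 with Wy-14643 and -0.088, 0.55 and 0.047 with aflatoxin B1, whose second array is 1 of those with a high actin ratio. Without the high-actin arrays only the first aflatoxin B1 array at 72 h was left, and the median turned to -0.095. Leaving out single arrays gave 0.018 to 0.38. The Wy-14643 median at 72 h ranged from 0.063 to 0.367 and that of clonidine from -0.081 to 0.161 with single arrays left out. Without the D3 arrays the medians at 72 h were 0.253 with aflatoxin B1, 0.144 with Wy-14643 and 0.031 with clonidine.

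**Figure D1:**
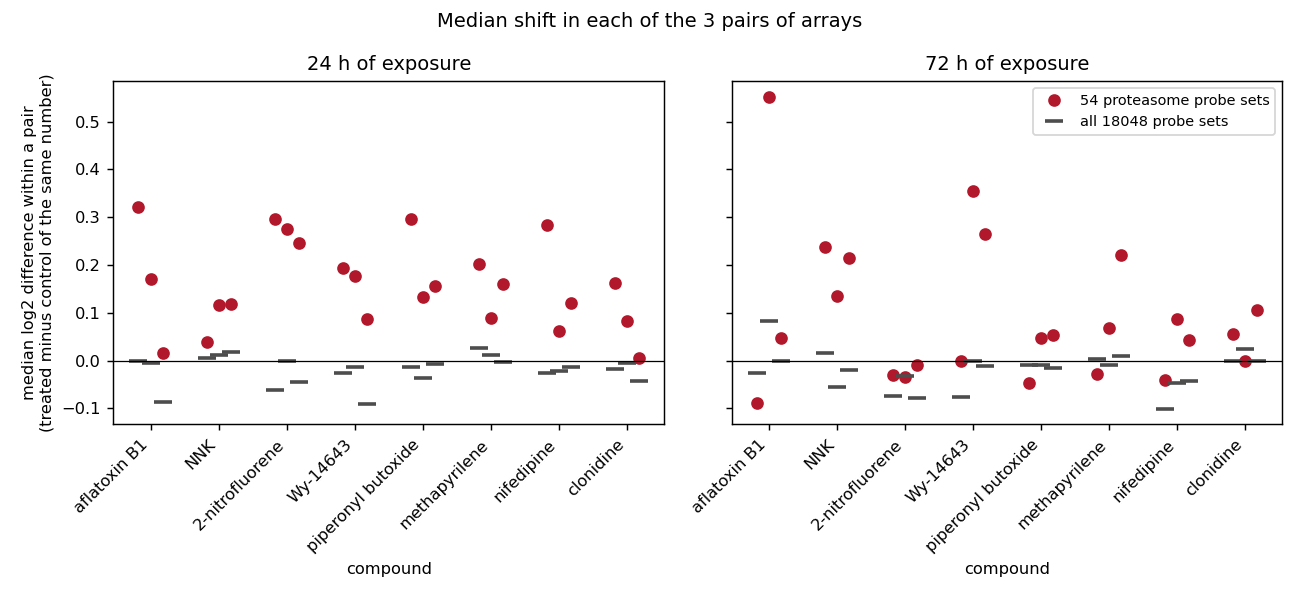
Median log2 difference, treated minus control, over the 54 proteasome probe sets (y axis) for each compound (x axis) at 24 h (left) and 72 h (right). Each point is 1 pair of arrays with the same number, with a mark for the median of all probe sets; at 24 h the 3 pairs of 2-nitrofluorene lie from 0.246 to 0.296, and at 72 h those of aflatoxin B1 spread from -0.088 to 0.552.

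The members whose 3 treated arrays all lay above all 3 controls were also counted, which needs no fit. With 2-nitrofluorene at 24 h this held for 29 of 54 members, against 10.6% of all probe sets. It held for 26 with piperonyl butoxide (6.24% of all), 21 with nifedipine (8.04%), 14 with methapyrilene (6.16%), 13 with Wy-14643 (3.52%), 9 with aflatoxin B1 (5.93%), 9 with clonidine (3.77%) and 7 with NNK (11.4%). At 72 h NNK had 25 such members (13.3% of all). The others had 9 with nifedipine (13.6%), 8 with methapyrilene (4.07%), 3 with 2-nitrofluorene (8.74%), 2 with piperonyl butoxide (4.38%), and 1 each with aflatoxin B1 (6.6%), Wy-14643 (5.05%) and clonidine (3.66%). The members whose 3 treated arrays all lay below the controls were fewer at 24 h: 6 with NNK (9.85% of all), 3 with 2-nitrofluorene (12.5%), 2 each with piperonyl butoxide (7.23%), methapyrilene (4.5%) and nifedipine (10.4%) and 0 with aflatoxin B1 (6.57%), Wy-14643 (5.48%) and clonidine (4.36%). At 72 h there were 6 with nifedipine (20.2%), 5 with 2-nitrofluorene (13.6%), 1 with NNK (15.1%) and 0 with aflatoxin B1 (5.73%), Wy-14643 (8.72%), piperonyl butoxide (5.1%), methapyrilene (3.35%) and clonidine (3.86%). The members were also far brighter than the rest, with a median intensity of 614.2 against 77.85 over all kept probe sets, and whether brightness bears on these counts was not tested.

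**Figure D2:**
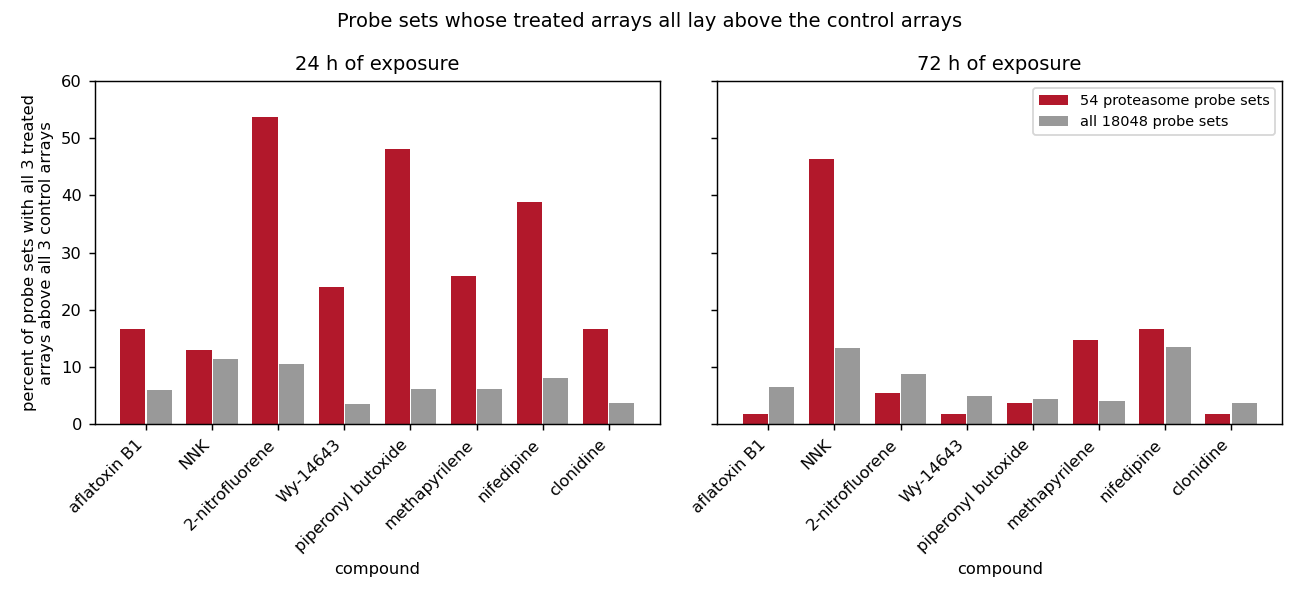
Percent of probe sets (y axis) whose 3 treated arrays all lay above the 3 control arrays, for the 54 proteasome probe sets and for all 18048, per compound (x axis) at 24 h and 72 h. The proteasome bar is tallest for 2-nitrofluorene at 24 h, 29 of 54 probe sets beside 10.6% of all.

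Few single members passed the test, limma's with an adjusted p under 0.05 over all 18048 probe sets. At 24 h, 4 rose with aflatoxin B1 (where 3.33% of all probe sets changed), 2 with 2-nitrofluorene (1.13%) and 1 with Wy-14643 (0.0443%). At 72 h, 1 rose with aflatoxin B1 (4.91%) and 2 with Wy-14643 (7.31%). No member fell in any of the 16 comparisons. By limma none was called at 24 h with NNK (0.92% of all), piperonyl butoxide (0.0887%), methapyrilene (0%), nifedipine (0.46%) or clonidine (0.0166%). The same was true at 72 h of NNK (3.32%), 2-nitrofluorene (0.809%), piperonyl butoxide (0%), methapyrilene (0%), nifedipine (3.18%) and clonidine (0.0332%). Without adjustment the members with p under 0.05 were higher in 17 and lower in 2 with 2-nitrofluorene at 24 h, and for the 11 comparisons with no call they ranged from 0 with piperonyl butoxide or methapyrilene at 72 h to 11 higher and 1 lower with NNK at 72 h. Of the others without a call, clonidine at 24 h had 10 higher, piperonyl butoxide and nifedipine at 24 h 7 each, and 2-nitrofluorene at 72 h 2.

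**Figure D3:**
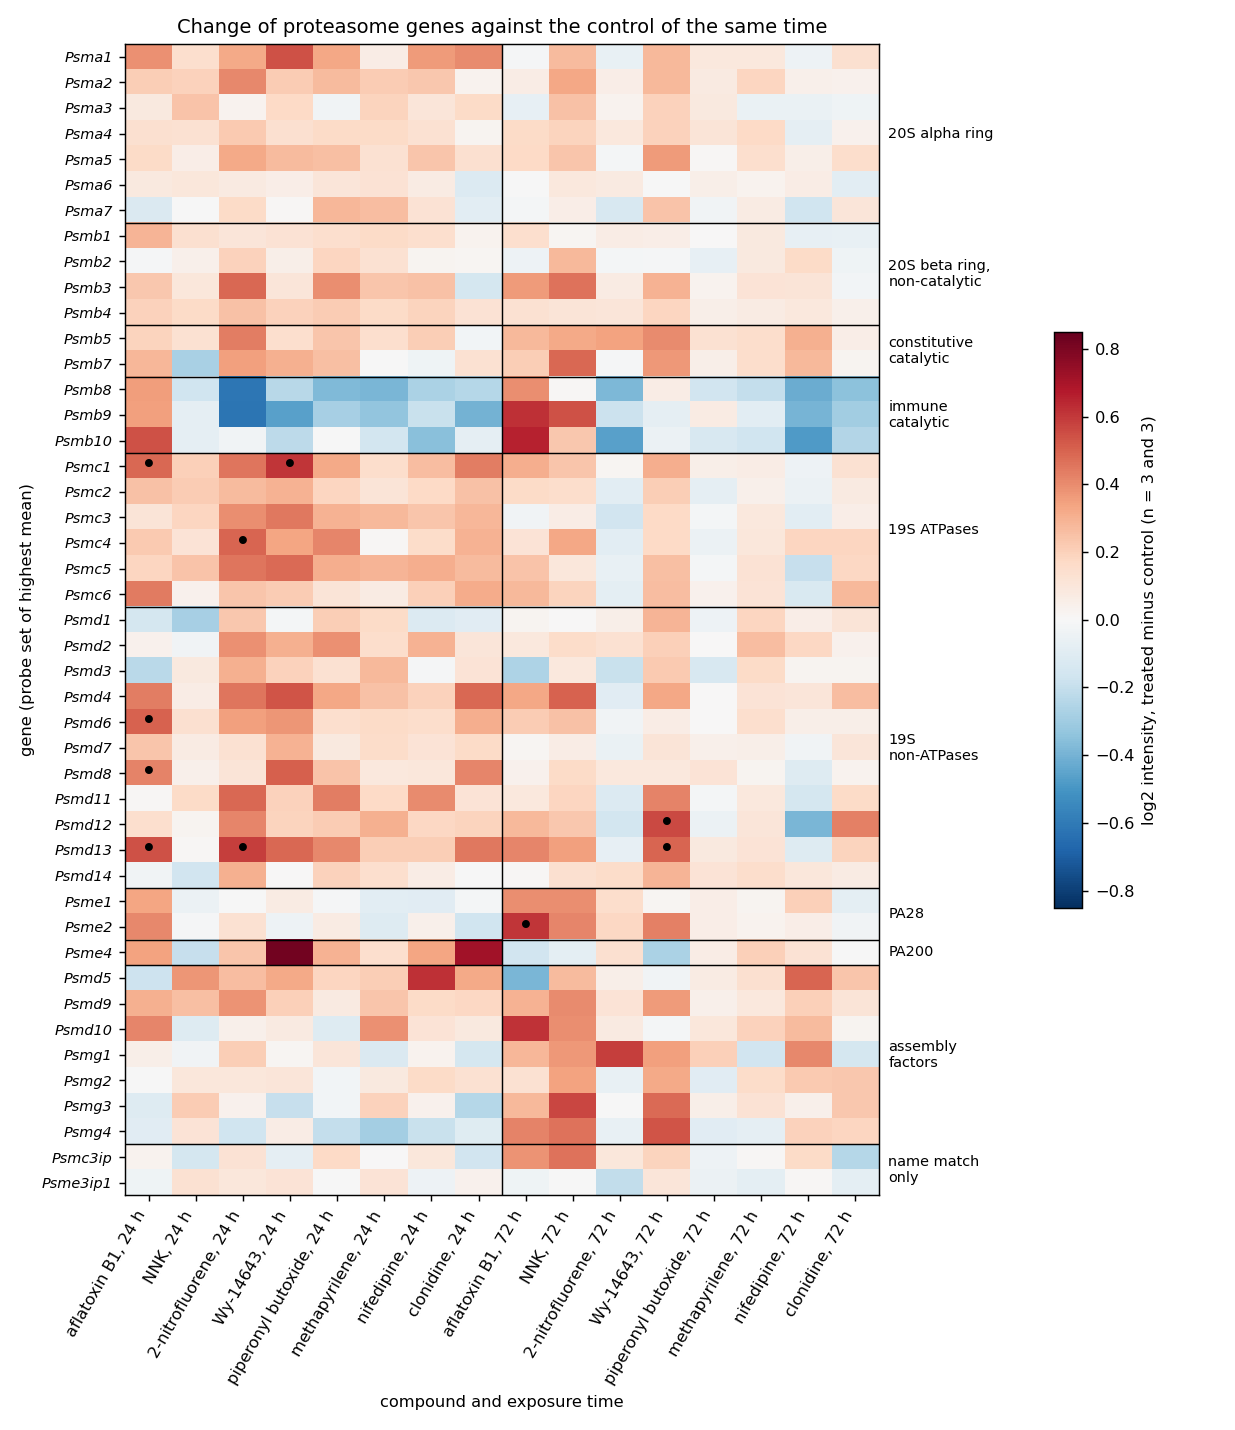
Log2 difference, treated minus control, for the 45 genes by role (rows) in the 16 comparisons (columns, grouped by exposure time), on a colour scale centred at 0. Each cell is the mean of 3 arrays against 3, and marked cells passed limma's test; Psmb8 and Psmb9 are below 0 with 2-nitrofluorene at 24 h, where the cap genes Psmd13 and Psmc4 are marked as higher.

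Most of the few calls fell on cap genes, which are 6 ATPases and 11 other subunits among the 45 genes. Those with aflatoxin B1 and Wy-14643 at 24 h were read against the same 3 control arrays, so they are not separate results. With 2-nitrofluorene at 24 h the 6 ATPases had a median of 0.42 and the 11 other cap subunits 0.35. Psmd13, a scaffold subunit of the cap's lid, read 551, 591 and 503 on the 3 treated arrays and 346, 385 and 362 on the controls, a rise of 0.59 ± 0.15 on the log2 scale (limma adjusted p = 0.0359). Psmc4, an ATPase of the unfolding ring, read 1042, 1009 and 1042 against 691, 704 and 800.1 (0.50 ± 0.12, limma adjusted p = 0.0245). For both genes every treated array exceeded every control. Here and below the error is the SE of the fit, with 3 arrays against 3 and a spread pooled over all groups. With any 1 of the 6 arrays left out Psmd13 kept 0.532 to 0.649 but not its call, and Psmc4 kept 0.458 to 0.563 and lost its call in 5 of 6. Within this set, equal numbers pair the arrays. With the number as a block 7 members rose and 2 fell, where 3.27% of all probe sets changed, and in a fit on this set's arrays alone 19 members were called (7.25% of all). Hepatocyte markers were lower in the same comparison, with a summed intensity of 38054 to 45222 against 48897 to 64165 in the controls. None of the 11 measured was higher, their median was -0.396, and Ahsg, which encodes the plasma protein fetuin-A, fell by 0.971. Against the same controls at 24 h, 0 of 11 were higher with nifedipine (median -0.21) and 1 with piperonyl butoxide (-0.294). Both ends of the range in these controls were the highest of the 24 groups. The part of these markers in the results was not tested.

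Other cap genes showed the same separation with 2-nitrofluorene without passing the test. Psmd11, a lid scaffold subunit, read 1081, 1230.2 and 1106 against 632, 986 and 859 (0.48 ± 0.15, limma adjusted p = 0.0945). The ubiquitin receptor Psmd4 read 571, 703 and 685 against 395, 541 and 497 (0.46 ± 0.21). For Psmd12, another lid scaffold gene, the arrays read 485, 589 and 455 against 377, 402 and 362 (0.41 ± 0.18). The members that rose in the blocked fit were Psmc1, Psmc4, Psmc5, Psmd2, Psmd11, Psmd13 and 1 probe set of Psmd14, the deubiquitinating subunit, so all 7 belong to the cap. By 72 h of the same compound Psmd13 read 354, 367 and 389.9 against 380.1, 366 and 421 (-0.07 ± 0.15) and Psmc4 stood at -0.09 ± 0.12. The groups then overlapped, and the ATPase median was -0.087. The difference between the times was itself not called for any member (0.00554% of all probe sets were), although 11 members had an unadjusted p under 0.05, all lower at 72 h.

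**Figure D4:**
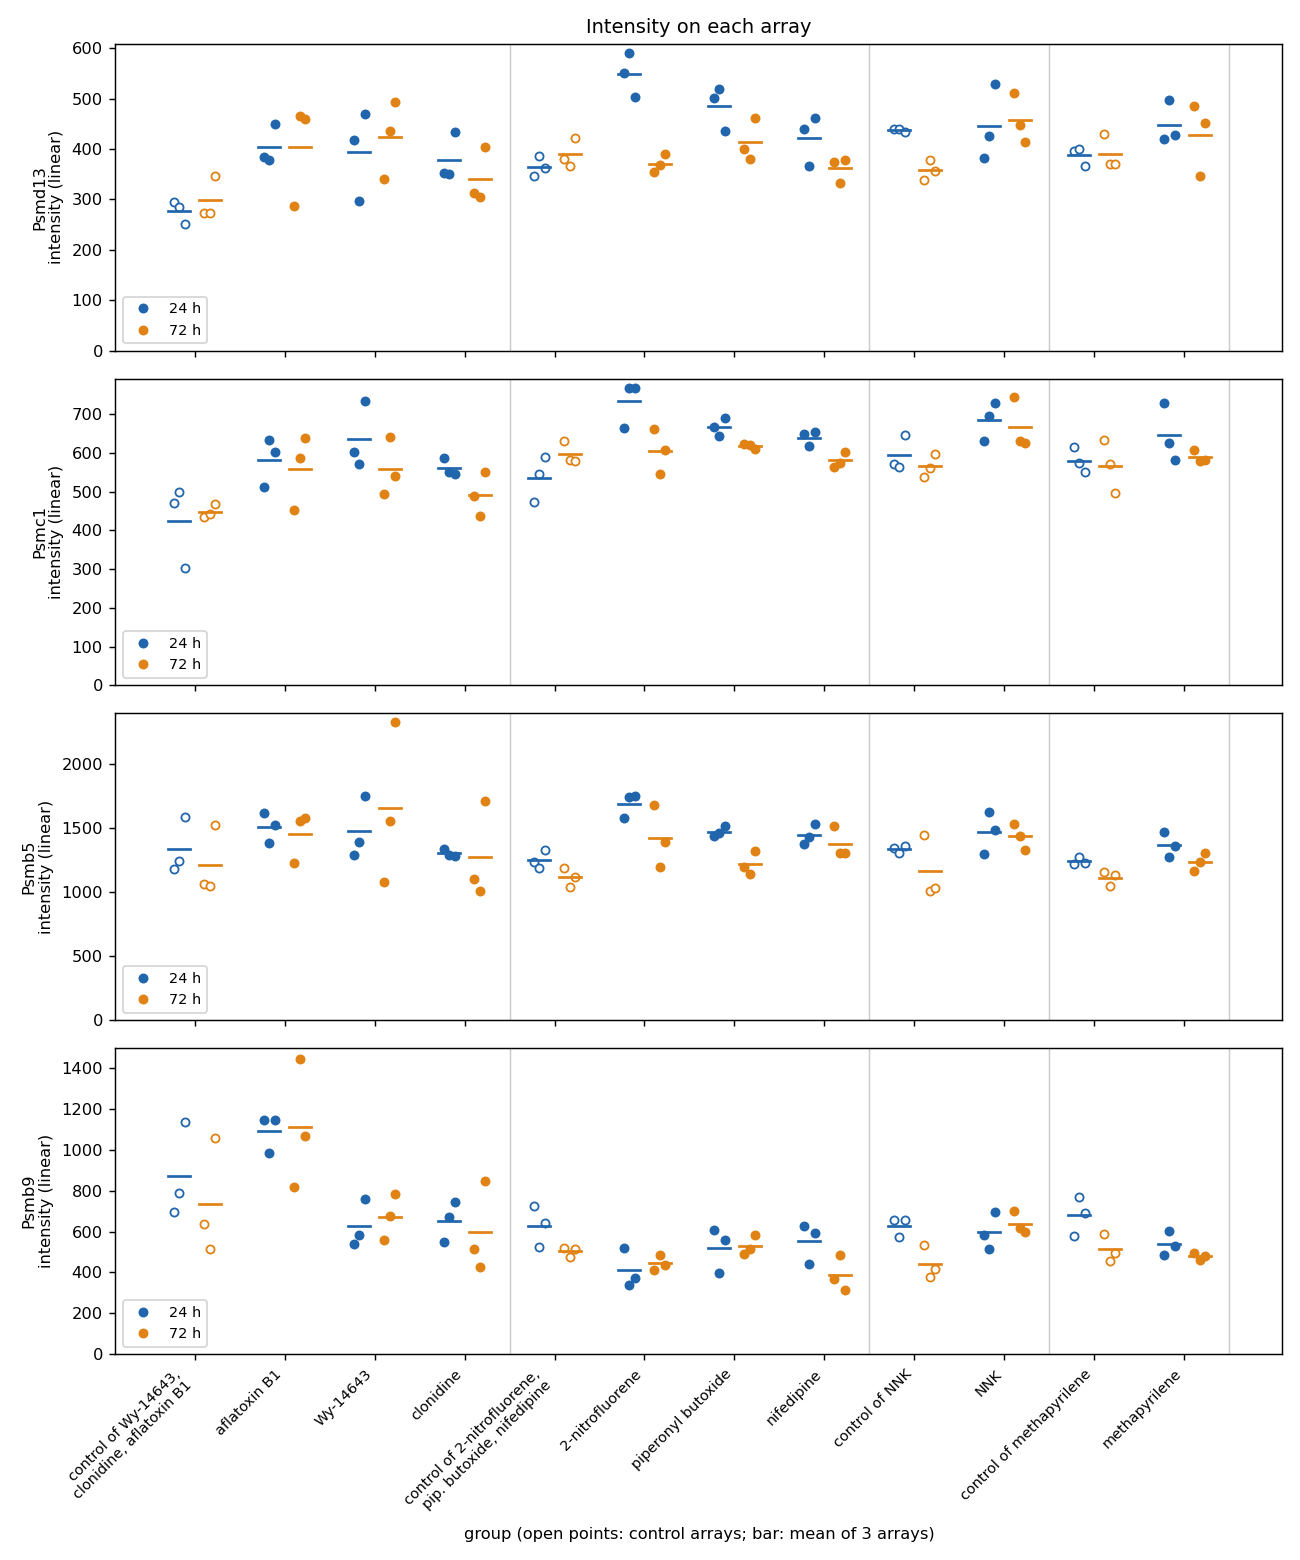
Intensity (y axis, linear and starting at 0) of Psmd13, Psmc1, Psmb5 and Psmb9 on each of the 72 arrays, grouped by compound and control set (x axis) and coloured by exposure time, with controls as open points and a bar at the mean of 3 arrays. With 2-nitrofluorene at 24 h the Psmd13 points lie from 503 to 591, above their controls at 346 to 385.

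With aflatoxin B1 at 24 h 4 cap genes rose. Psmd13 read 384, 377 and 449.7 against 296, 285 and 251 (0.54 ± 0.15, limma adjusted p = 0.0332). Psmd6, a lid subunit, read 1158, 1071 and 1124 against 923, 913 and 581 (0.50 ± 0.14, limma adjusted p = 0.0309). Psmc1, an ATPase, read 513, 634 and 602 against 471, 498 and 303 (0.49 ± 0.13, limma adjusted p = 0.019). The third control array was the lowest for all 3 genes, and the groups did not overlap. For Psmd8, the last of the 4 (0.42 ± 0.12, limma adjusted p = 0.0377), the treated arrays read 1788, 1977 and 2107 and the controls 1786, 1836 and 945, so the first treated array overlapped the controls. The third control is a D3 array, and without it the differences were 0.471 for Psmd13, 0.283 for Psmd6, 0.261 for Psmc1 and 0.109 for Psmd8, none called. Without all D3 arrays they were 0.391, 0.279, 0.236 and 0.054, again not called. None of the 4 was called in a fit on this set alone. Without the high-actin arrays only the second treated array was left, so no call is given for that setting. The controls of this set were also low beside the other control groups, where Psmd13 at 24 h read 346, 385 and 362 for 2-nitrofluorene, 439, 439 and 434 for NNK and 395, 399.8 and 367 for methapyrilene.

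Wy-14643, an agonist of the lipid sensor PPAR alpha, was read against the same controls. At 24 h Psmc1 read 603, 571 and 735 (0.61 ± 0.13, limma adjusted p = 0.0378). All 3 arrays exceeded the controls, though the third difference by number was 1.28 against 0.36 and 0.196 for the other two, and without the third control the value was 0.384 and not called, as was 0.276 without the D3 arrays. Psmd13 at 418, 298 and 469 (0.49 ± 0.15) and Psmd4 at 529, 493 and 622 against 406, 412 and 318 (0.54 ± 0.21) were not called. Blocked by array number, which pairs the arrays here, 3 members rose (Psmc1, Psmd8 and 1 probe set of Psmd14; 0.56% of all probe sets changed). At 72 h the cap genes Psmd13 and Psmd12 rose with Wy-14643. Psmd13 read 340.0, 435 and 493 against 274, 274 and 347 (0.50 ± 0.15, limma adjusted p = 0.0356). Psmd12 read 383, 508 and 645 against 316, 282 and 436 (0.56 ± 0.18, limma adjusted p = 0.0499). The groups overlapped for both genes, and both lost the call without any 1 of treated arrays 2 and 3 and control arrays 1 and 2. Without treated array 1, by contrast, 15 members rose and 1 fell, where 15.1% of all probe sets changed. Without the D3 arrays Psmd13 stood at 0.491 (limma adjusted p = 0.0515) and Psmd12 at 0.563 (limma adjusted p = 0.0651). The blocked fit called 5 higher (Psmb5, Psmd11, Psmd12, Psmd13 and Psme2) and 1 lower, a probe set of Psme4, where 13.2% of all probe sets changed. In a fit on the set's arrays alone none was called at either time. Of the 11 hepatocyte markers 4 fell with Wy-14643 at 72 h, namely those of the plasma proteins Ahsg, Apoa1 and Ttr and of the drug-metabolising enzyme Cyp2c11, and 1 was higher (median -0.585). Their summed intensity was 26627 to 33182 against 38486 to 46611, and their part in the result was not tested.

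Clonidine, also read against these controls, gave no call. At 24 h Psmd4 read 499, 469 and 624 against 406, 412 and 318 (0.48 ± 0.21), and the ATPase median was 0.29. At 72 h it was 0.15. In the remaining comparisons the ATPase medians at 24 h were 0.30 with piperonyl butoxide, 0.22 with nifedipine, 0.19 with NNK and 0.13 with methapyrilene. At 72 h they were -0.016, -0.072, 0.17 and 0.094. With piperonyl butoxide at 24 h Psmd13 read 500.5, 519 and 436 against the controls it shared with 2-nitrofluorene (0.41 ± 0.15, limma adjusted p = 0.917). With nifedipine it read 441, 366 and 461 (0.21 ± 0.15). All 3 piperonyl butoxide arrays lay above the controls, and those of nifedipine overlapped them.

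The alpha ring showed small differences and no call in any of the 16 comparisons. Its median at 24 h was largest with piperonyl butoxide, 0.26, and 2-nitrofluorene, 0.22, and smallest with clonidine, 0.033. At 72 h it was 0.24 with Wy-14643, 0.23 with NNK and -0.042 with nifedipine. Psma1, the highest of the ring with Wy-14643 at 24 h, read 1436, 1401 and 1662 against 1061, 1028 and 996 (0.54 ± 0.18, limma adjusted p = 0.222), with no overlap. Among the 4 structural beta genes Psmb3 was the highest with 2-nitrofluorene at 24 h, at 1590.0, 2004 and 1973 against 1114, 1393 and 1466 (0.49 ± 0.20). It was also the highest with NNK at 72 h, at 1681, 1427 and 1529.7 against 1211, 1116 and 1039 (0.46 ± 0.20). Neither passed the test, and in both cases all treated arrays exceeded the controls.

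With 2-nitrofluorene at 24 h the constitutive Psmb5 and the immune Psmb8 and Psmb9 lay on opposite sides of their controls. Psmb5, which carries the chymotrypsin-like site, read 1574, 1741 and 1747 against 1229, 1184 and 1327 (0.44 ± 0.17, limma adjusted p = 0.239). Psmb8, the immune subunit that replaces it, read 433, 371 and 395 against 595, 589 and 647 (-0.61 ± 0.20, limma adjusted p = 0.144). Psmb9 read 522, 341 and 373 against 726, 522 and 639.5 (-0.62 ± 0.22, limma adjusted p = 0.177). All treated arrays of Psmb5 lay above their controls and all those of Psmb8 and Psmb9 below theirs, for Psmb9 by less than 1 unit between the first treated and the second control array. With the array number as a block, which pairs these arrays, Psmb8 (limma adjusted p = 0.027) and Psmb9 (limma adjusted p = 0.0434) fell. Psmb10 read 387, 194 and 217 against 307, 209 and 271 (-0.031 ± 0.29) and its groups overlapped. Macrophage markers were lower in the same comparison. The summed intensity of the 15 measured was 937 to 1583 with 2-nitrofluorene and 1332 to 2303 in its controls, with 1 of 15 higher and a median of -0.58. None of the 15 was called, and their part in the result was not tested.

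With aflatoxin B1 the median difference of the 3 immune catalytic genes was 0.35 at 24 h and 0.62 at 72 h, and that of the PA28 genes 0.37 and 0.50. At 24 h Psmb8 read 989.8, 842 and 887 against 625, 731 and 774 (0.35 ± 0.20), Psmb9 1143, 985 and 1146 against 695, 789.8 and 1135 (0.35 ± 0.22) and Psmb10 347, 256 and 263 against 168, 175 and 259 (0.54 ± 0.29), none called. The third control array was the highest of its group for all 3 genes, and Psmb8 did not overlap. At 72 h the PA28 subunit gene Psme2 rose, with 898, 1787 and 1450.3 against 826, 655 and 1222 (0.60 ± 0.18, limma adjusted p = 0.0372), although the first treated array lay below the third control. Psmb9 at 72 h read 819, 1441 and 1067 against 635, 513 and 1057 (0.62 ± 0.22, limma adjusted p = 0.0933). Psmb10 read 198, 429 and 339.6 against 208, 137 and 258 (0.66 ± 0.29). Psmb8 stood at 0.40 ± 0.20 and Psme1, the other PA28 gene, at 0.39 ± 0.14. In each of these genes the second treated array, 1 of those with a high actin ratio, was the highest. Without that array Psme2 stood at 0.39 and without the second control at 0.399, neither called. Without the D3 arrays it stood at 0.785 (limma adjusted p = 0.000855) and 6 members were called (12.9% of all probe sets). Without treated array 1 there were 13 members called (8.89%), and in a fit on the set alone none (1.34%). Without the high-actin arrays only the first treated array was left, so no count is given for that setting.

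Other genes of the interferon response were taken from a list of 26, of which 21 were measured. With aflatoxin B1, Cxcl10, an interferon-induced chemokine, rose by 2.38 ± 0.54 at 24 h and 3.36 ± 0.54 at 72 h, and the GTPase gene Gbp2 by 2.17 ± 0.43 and 2.61 ± 0.43. Irf1 (1.04 ± 0.28) and Irf7 (1.17 ± 0.33), transcription factors of this response, rose at 72 h, and Ifit2 fell at both times (-1.16 ± 0.34 and -1.10 ± 0.34). In all 2 of the list rose and 1 fell at 24 h, and 4 rose and 1 fell at 72 h. Macrophage markers were again on the same side: their summed intensity was 1598 to 3246 with aflatoxin B1 at 24 h against 809 to 1880, and 1842 to 2656 at 72 h against 866 to 1652. Of the 15, 13 were higher at 24 h (median 0.72) and 14 at 72 h (1.02), none called, and their part in the result was not tested. Of 9 stellate cell markers 7 were higher at 24 h (median 0.263) and 8 at 72 h (0.828), none called. Of 5 endothelial markers 3 and 2 were higher, and of 3 bile duct markers 2 and 1. The part of these lists was not tested either. Of 10 lymphocyte markers on the array, Lck (mean intensity 25.8) was at the floor on 0 of 72 arrays and Klrb1a (13.3) on 2, while the other 8 were there on 15 to 70. Klrb1a fell with Wy-14643 at 72 h (-1.62 ± 0.48).

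With NNK at 72 h the constitutive and the PA28 genes were both higher. Psmb7, which carries the trypsin-like site, read 1319, 1124 and 1326 against 966, 1021 and 727 (0.48 ± 0.16, limma adjusted p = 0.0804). Psme1 read 1882, 1817 and 1791 against 1647, 1258 and 1301 (0.40 ± 0.14, limma adjusted p = 0.108). Psmd4 read 690.3, 647 and 537 against 438, 459 and 419 (0.50 ± 0.21). The groups did not overlap for any of the 3. Blocked by array number, which pairs these arrays, Psmb7 (limma adjusted p = 0.0162) and Psme1 (limma adjusted p = 0.00775) rose, where 7.18% of all probe sets changed. Psmb9 stood at 0.54 ± 0.22 and Psmb8 at 0.007 ± 0.20. Of the interferon list Cxcl10 (2.74 ± 0.54), Irf7 (1.53 ± 0.33), Gbp2 (1.47 ± 0.43) and Tap1 (0.76 ± 0.22), the peptide transporter of antigen presentation, rose. The summed macrophage markers were 1094 to 2496 with NNK and 1037 to 2497 in its controls. Of the 15 measured, 9 were higher (median 0.2), none was called, and their part in the result was not tested.

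In the other comparisons the immune catalytic genes gave no call. At 24 h Psmb8 stood at -0.39 ± 0.20 with methapyrilene, -0.38 ± 0.20 with piperonyl butoxide, -0.27 ± 0.20 with nifedipine, -0.24 ± 0.20 with Wy-14643, -0.24 ± 0.20 with clonidine and -0.17 ± 0.20 with NNK. Psmb9 with Wy-14643 at 24 h read 538, 585 and 760.3 against 695, 789.8 and 1135 (-0.46 ± 0.22), and its groups overlapped. At 72 h the medians of the 3 genes were -0.42 with nifedipine, -0.38 with 2-nitrofluorene, -0.29 with clonidine, -0.17 with methapyrilene, -0.14 with piperonyl butoxide and -0.051 with Wy-14643. Of the 15 macrophage markers 5 fell with Wy-14643 at 72 h (summed intensity 509.97 to 937 against 866 to 1652) and 2 with nifedipine at 72 h (559 to 1259 against 1002 to 2210). With 1 of 15 higher in each, their median was -1.65 with Wy-14643, -1.44 with nifedipine and -1.02 with 2-nitrofluorene (589 to 1300.1 against 1002 to 2210) at 72 h and -0.8 with Wy-14643 at 24 h (365 to 1508 against 809 to 1880). With clonidine at 24 h 7 of 15 were higher (median -0.085), where the 3 immune catalytic genes had a median of -0.243. In the rest of these comparisons 1 to 4 were higher, with medians from -0.354 to -0.127. The part of these markers in the result was not tested. Psmb5 at 72 h stood at 0.40 ± 0.17 with Wy-14643, 0.34 ± 0.17 with 2-nitrofluorene, 0.32 ± 0.17 with NNK and 0.30 ± 0.17 with nifedipine.

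**Figure D5:**
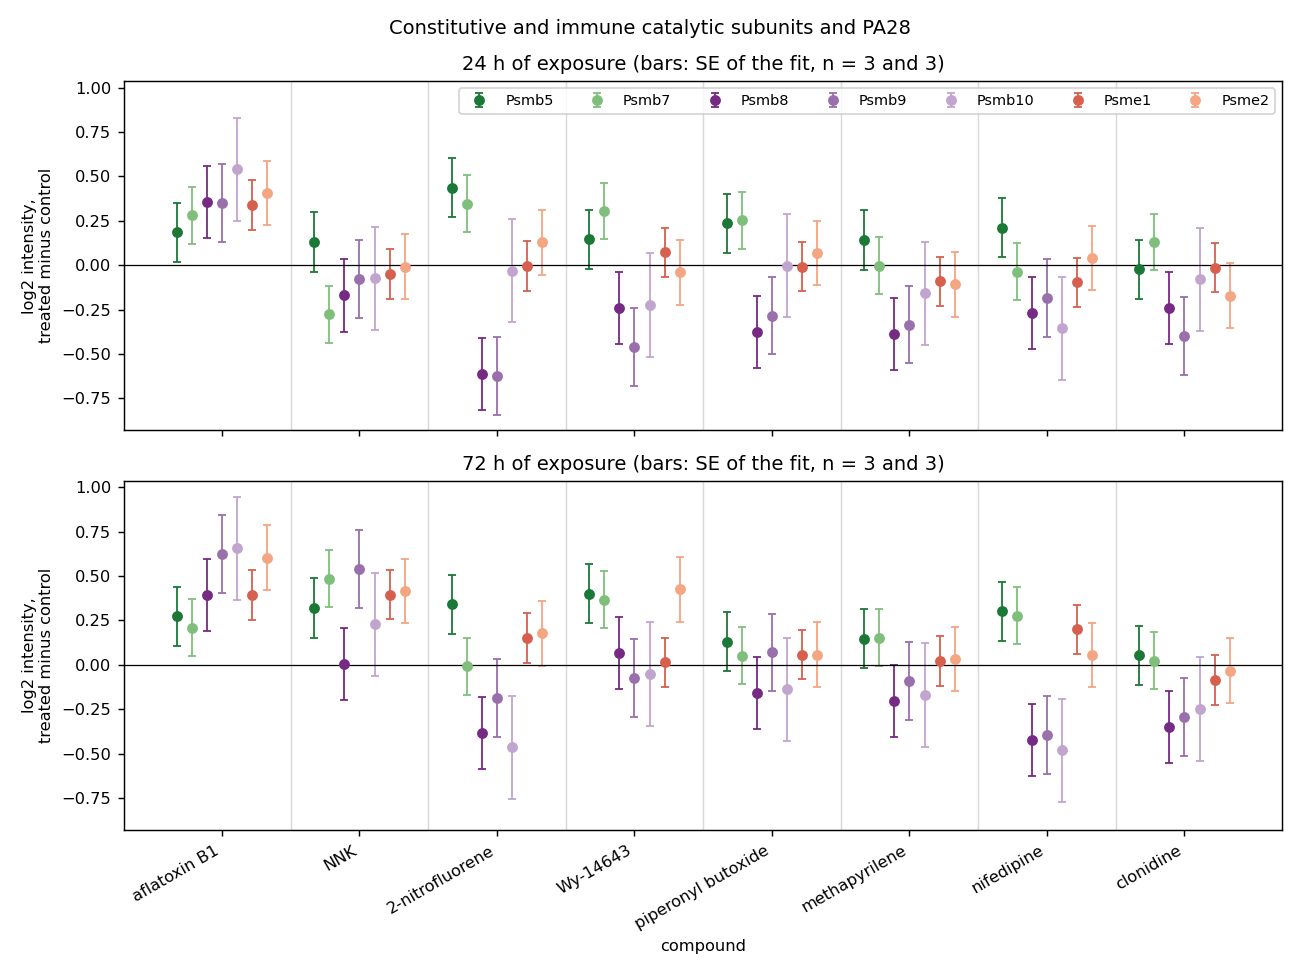
Log2 difference, treated minus control (y axis), of the constitutive (Psmb5, Psmb7) and immune (Psmb8, Psmb9, Psmb10) catalytic genes and the PA28 genes (Psme1, Psme2), per compound (x axis) at 24 h and 72 h. Bars are the SE of the fit, 3 arrays against 3 with the spread pooled over all groups. With 2-nitrofluorene at 24 h Psmb5 is at 0.44 and Psmb8 at -0.61, and with aflatoxin B1 at 72 h all 3 immune genes are above 0.

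Differences between compounds were tested as the difference of 2 effects, each against its own control, for all 56 pairs of compounds and times, with adjustment over all probe sets within each pair. A member was called in 6 pairs, 5 of which involve aflatoxin B1. Psmb9 was higher with aflatoxin B1 than with Wy-14643 at 24 h by 0.811 ± 0.22 (limma adjusted p = 0.018; 4.79% of all probe sets differed) and at 72 h by 0.698 (limma adjusted p = 0.0256; 12.2%). It was higher than with clonidine by 0.749 at 24 h (limma adjusted p = 0.0414; 3.12%) and by 0.917 at 72 h (limma adjusted p = 0.00456; 5.78%). Against nifedipine at 72 h the difference was 1.02 ± 0.31 (limma adjusted p = 0.0356; 6.05%). The difference between aflatoxin B1 and clonidine at 72 h also passed for Psmb8 (0.744), Psme1 (0.48) and Psme2 (0.637), so the immune and PA28 genes make up all 4 calls there. Psmd3, a lid subunit, was lower with aflatoxin B1 than with Wy-14643 at 72 h (-0.49 on the log2 scale), and Psmd12 was higher with Wy-14643 than with nifedipine at 72 h by 0.951 ± 0.26 (limma adjusted p = 0.0345; 2.39%), a call lost with 10 of the 12 arrays left out in turn (highest limma adjusted p = 0.141). Aflatoxin B1, Wy-14643 and clonidine share controls, so their difference compares the treated arrays alone. Without the high-actin arrays only the second aflatoxin B1 array at 24 h and the first at 72 h were left, so only differences are given. Psmb9 then differed from Wy-14643 by 0.812 at 24 h and 0.415 at 72 h, from clonidine by 0.702 and 0.8, and from nifedipine at 72 h by 0.918. In that setting Psmd12 kept 0.951 between Wy-14643 and nifedipine at 72 h (limma adjusted p = 0.00432). Without the D3 arrays the differences of Psmb9 were 0.92 and 0.823 from Wy-14643 at 24 h and 72 h, 0.81 and 1.21 from clonidine, and 1.33 from nifedipine at 72 h, all called (limma adjusted p = 0.000137 to 0.0247), and those of Psmb8, Psme1 and Psme2 from clonidine at 72 h were 0.971, 0.561 and 0.741 and that of Psmd3 from Wy-14643 -0.524, also called. In a fit on the set alone no member was called for aflatoxin B1 against Wy-14643 or clonidine at either time. In the 50 pairs with no member called, 0 to 6 members had an unadjusted p under 0.05 and 0 to 3.2% of all probe sets were called. These compounds differ in dose and are not related by a named change in structure, so no order of potency is read from them.

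The 7 assembly factors had no call. Psmg1, a member of the chaperone pair that starts the alpha ring, read 749.8, 480.3 and 633 with 2-nitrofluorene at 72 h against 475, 341 and 415 (0.59 ± 0.23, limma adjusted p = 0.409). That was the largest value of any member in this comparison, in which Psmd13 and Psmc4 were no longer higher. At 72 h the median of the assembly genes was 0.40 with NNK, 0.35 with Wy-14643, 0.28 with aflatoxin B1 and 0.22 with nifedipine. Psmg3 with NNK at 72 h read 325, 317 and 437 against 223, 236 and 263 (0.57 ± 0.32). Psmd5, a chaperone of the cap's base, read 969.9, 1066 and 827 with nifedipine at 24 h against 564, 725 and 578 (0.62 ± 0.26, limma adjusted p = 0.402), with no overlap, and stood at 0.49 ± 0.26 at 72 h. Psmd10, the base chaperone also called gankyrin, stood at 0.61 ± 0.28 with aflatoxin B1 at 72 h. Of the genes that share only the prefix, Psme3ip1 stayed between -0.21 and 0.13 over the 16 comparisons, and Psmc3ip between -0.245 and 0.46, highest with NNK at 72 h, where it read 65.4, 67.7 and 63.0 against 60.3, 48.3 and 36.8.

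For 39 genes 1 probe set was kept, for 3 genes 2 and for 3 genes 3, and these did not always give 1 answer. The 3 probe sets of Psmd14 gave 0.30, 0.57 and 0.84 with 2-nitrofluorene at 24 h, from the brightest down. Psme4, the PA200 gene, gave 0.82, 0.11 and -0.30 with Wy-14643 at 24 h, of both signs. On its brightest probe set the controls read 892, 738 and 66.9, and without the third control the value was -0.382. Psmc6 gave 0.44 on its brightest probe set with aflatoxin B1 at 24 h and 0.256 and -0.12 on the others, and the 2 probe sets of Psmd11 gave 0.485 and 0.275 with 2-nitrofluorene at 24 h. The direction for Psme4 and Psmc6 was therefore not the same on all probe sets.

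No member's effect differed between the exposure times past the test's threshold. The test of 72 h minus 24 h effects called 0 members for each compound, where it called 0% of all probe sets for aflatoxin B1, Wy-14643, piperonyl butoxide, methapyrilene and clonidine, 0.0277% for NNK and 0.116% for nifedipine. Beside 2-nitrofluorene, the members with an unadjusted p under 0.05 were 3 each for piperonyl butoxide and nifedipine, all lower at 72 h, 2 for NNK, both higher, and 1, lower, each for aflatoxin B1, Wy-14643 and clonidine. In the controls themselves Psmb7 fell by 0.555 ± 0.16 from 24 h to 72 h in the NNK control group (limma adjusted p = 0.0427; 2.85% of all probe sets changed). Its intensity went from 1368, 1274 and 1305 to 966, 1021 and 727, while with NNK it read 1115, 906 and 1263 and 1319, 1124 and 1326. The higher Psmb7 with NNK at 72 h stood against a control that had fallen. No member was called in the controls of the 2-nitrofluorene set (2.71% of all), of methapyrilene (0.51%) or of the aflatoxin B1 set (0%). Pairing by array number was checked only between treated and control arrays of the same time, not between the times of a control group. With the number as a block Psmc3 (0.403) and Psmd11 (0.412) rose in the 2-nitrofluorene controls (8.26% of all probe sets changed). Psma3 (0.497) rose in the methapyrilene controls (3.46%), and Psmg1 (-0.78) fell beside Psmb7 in the NNK controls (9.5%).

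The genes known to regulate the proteasome genes were described from a list of 15, of which 14 were measured. Nfe2l1, the factor that raises them when activity runs short, was called in no comparison, and stood at -0.56 ± 0.23 with aflatoxin B1 at 24 h (limma adjusted p = 0.203). Nfe2l2 rose with NNK at 24 h (0.97 ± 0.16) and 72 h (0.97 ± 0.16) and with aflatoxin B1 at 24 h (0.55 ± 0.16). Maff, a small partner of these factors, rose with nifedipine at both times (2.18 ± 0.40 and 2.12 ± 0.40) and with clonidine at 72 h (2.31 ± 0.40), and Keap1, the inhibitor of NFE2L2, rose with nifedipine at 72 h (0.74 ± 0.21). Targets of NFE2L2 changed most with nifedipine, where 7 of 18 measured rose at 24 h (0.46% of all probe sets changed) and 10 at 72 h (3.18%). Among them were Hmox1 (2.74 ± 0.54 and 3.58 ± 0.54) and Srxn1 (2.19 ± 0.41 and 2.85 ± 0.41). In those comparisons the proteasome medians were 0.15 and 0.036 with no call. With 2-nitrofluorene at 24 h 3 of the 18 rose (1.13% of all probe sets changed): Akr7a3 (1.98 ± 0.34), Gstp1 (1.99 ± 0.52) and Me1 (1.34 ± 0.35). All 18 were higher there, with a median of 0.84. They were also all higher with nifedipine at both times (medians 1.11 and 1.49) and at 24 h with clonidine (0.76) and Wy-14643 (0.40). With Wy-14643 at 72 h 3 rose and 13 were higher. With aflatoxin B1 10 were higher and 1 fell at each time. A link to the proteasome genes was not tested.

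Of 24 listed partners of the proteasome 20 were measured. Adrm1, a ubiquitin receptor of the cap, rose with NNK at 72 h (0.93 ± 0.23) and nifedipine at 72 h (1.17 ± 0.23). In these 2 comparisons the fit without a block called no member. Pomp, the maturation factor of the core, was not called anywhere, with its highest value, 0.33 ± 0.12, with NNK at 72 h (limma adjusted p = 0.138). The ubiquitin shuttle genes Ubqln2 and Ubqln1 fell, the former with aflatoxin B1 at 24 h (-0.65 ± 0.17) and the latter with Wy-14643 at 72 h (-0.49 ± 0.16), and the ubiquitin ligase gene Ube3c fell with NNK at 72 h (-0.67 ± 0.17). Among 16 measured heat shock genes of 19, the co-chaperone gene Dnaja1 rose with aflatoxin B1 at 24 h (0.65 ± 0.13) and 72 h (0.47 ± 0.13) and with Wy-14643 at 72 h (0.42 ± 0.13). With aflatoxin B1 at 72 h Hsf1, which encodes the main regulator of these genes, rose (0.62 ± 0.19) and the co-chaperone gene Bag3 fell (-0.72 ± 0.21). The mitochondrial chaperone genes Hspd1 (0.35 ± 0.10) and Hspe1 (0.46 ± 0.13) rose with Wy-14643 at 72 h as well. Among 13 measured of 16 genes of degradation from the endoplasmic reticulum, Os9, a lectin that hands over misfolded glycoproteins, fell with NNK at 24 h (-0.88 ± 0.21) and rose with nifedipine at 72 h (0.73 ± 0.21). Ube2j1 (0.70 ± 0.22) and Faf2 (0.60 ± 0.19) rose with Wy-14643 at 72 h. Of 6 listed ubiquitin and activating-enzyme genes 2 were measured, and neither was called.

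Within groups most core and cap genes varied together over the 72 arrays, as a description of arrays that share normalization. Each log2 value was taken as its deviation from the mean of its group, so differences between compounds, controls and times do not enter. The deviations were compared with the mean of those of the core and cap genes (29 for a gene of that set, 30 for any other). Their Pearson correlation was 0.911 for Psma5, 0.895 for the assembly factor Psmd9 and 0.89 for Psmd4. The lowest were Psme4, at -0.53, Psmd5, at -0.33 and Psmc3, at -0.31. Of the cap genes Psmd2 (-0.1), Psmd3 (0.124) and Psmd8 (0.207) were low as well. Psmc3ip, which is no subunit, had 0.674, above the cap genes Psmc1 (0.469) and Psmc2 (0.569), and Psme3ip1 had 0.202. Genes outside the members were not compared, so the values are not shown to be particular to the complex. The arrays of high actin ratio are among the 72. Among the immune and PA28 genes the correlation was 0.839 between Psmb9 and Psmb10, 0.753 between Psmb9 and Psme2 and 0.709 between Psmb8 and Psmb9.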

How the data were processed

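RNA of rat hepatocytes was measured on 72 Affymetrix arrays, 3 in each of 24 groups. The authors deposited intensity values on a linear scale made with MAS5, per the submitters' processing notes; MAS5 gives 1 background-corrected value per probe set, and its settings are not stated in the labels or files. No column was left unused (0). Groups came from the titles. Gene names came from the platform annotation (20826 probe sets with 1 symbol, 436 with several, 9780 with none).

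Values under 3.117 (percentile 20 over all arrays) were set to that floor before taking log2, so changes near the floor are understated. Control probe sets (57) were dropped, and others kept where the mean of 1 group or more reached the median of all values, 19.74, which left 18048. limma 3.58.1 in R 4.3.3 fitted the 24 group means (lmFit, then eBayes with a trend, 48 residual degrees of freedom), with a threshold of 0.05 on p-values adjusted per comparison by Benjamini-Hochberg. The fit was tested on simulated data, with known changes put into 1 group for probe sets drawn from all those kept. It called 8% of changes of 0.5 on the log2 scale, 32% of 1, 86% of 2 and 94% of 4. Of its calls 6.78% were false. A small difference without a call is therefore no sign that there was no change. The p-values and SEs reflect array-to-array spread within groups, with 1 spread per probe set pooled over all 24 groups. They do not measure the spread of the compared arrays alone, and the arrays of high actin ratio are part of the pool. Having 3 arrays a group limits the precision. Tests were of each compound against its control (16 comparisons), the difference between times, the difference between compounds and the change with time in the controls.

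The members and gene lists were chosen with earlier results of these data known. A gene with several probe sets is given by its brightest one. Values on every array are given for called members and for fixed genes (among them the catalytic, PA28 and some cap and assembly genes), and other members by ranges. Within a comparison, arrays of equal replicate number have the same D number in their titles. Treated and control arrays of equal number and time deviated together, with a correlation over 0.1 in every pair, outside aflatoxin B1. The fit with the D number as a block, called the array number above, is therefore given beside those results where it changes them. Other settings tried were another log scale, no filter, no trend, quantile normalization, each set on its own, the number as a block, single arrays left out, and the arrays numbered D3 or of high actin ratio left out.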

Additional observations from a re-analysis of the deposited data

How the results depend on the processing

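The counts of called members were small, and many moved with the settings, while no called member changed direction under any of them. In a fit on each set's own arrays, the count went from 2 to 19 with 2-nitrofluorene, 0 to 4 with nifedipine and 0 to 3 with piperonyl butoxide at 24 h, from 0 to 5 with NNK, 0 to 2 with nifedipine and 0 to 1 with 2-nitrofluorene at 72 h, and from 0 to 3 for the time difference of 2-nitrofluorene. It went to 0 for aflatoxin B1 (from 4 and 1) and Wy-14643 (from 1 and 2) at 24 h and 72 h and for their differences and those from clonidine, and to 5 for time in both the 2-nitrofluorene and the NNK controls (from 0 and 1). With quantile normalization it was 1 with 2-nitrofluorene, 2 with aflatoxin B1 and 0 with Wy-14643 at 24 h, 2 with aflatoxin B1 and 1 with Wy-14643 at 72 h, 0 for aflatoxin B1 minus clonidine at 24 h, and at 72 h 5 for aflatoxin B1 minus clonidine (from 4) and 3 minus Wy-14643 (from 2). With log2(value + 16) it was 1 with Wy-14643 at 72 h and 2 in the NNK controls.

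Without the filter the count was 0 with aflatoxin B1 at 72 h, 1 with Wy-14643 at 72 h, 0 in the NNK controls, 1 for aflatoxin B1 minus Wy-14643 at 72 h and 0 for aflatoxin B1 minus clonidine at 24 h, aflatoxin B1 minus nifedipine and Wy-14643 minus nifedipine at 72 h. Without the trend it was 0 and 1 with Wy-14643 at 24 h and 72 h, 0 in the NNK controls and 1 for aflatoxin B1 minus Wy-14643 at 72 h.

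With the array number as a block the count was 9 with 2-nitrofluorene at 24 h, 3 and 6 with Wy-14643 at 24 h and 72 h, 2 with NNK at 72 h, and 2, 1 and 2 in the controls of 2-nitrofluorene, methapyrilene and NNK. The pairing check failed for aflatoxin B1, with a lowest correlation of -0.27 at 24 h and -0.29 at 72 h, where the block gave 6 and 4 members, 4 each for its differences from Wy-14643 and clonidine at 24 h and nifedipine at 72 h, 6 from Wy-14643 and 7 from clonidine at 72 h. The block changed no other count.

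Without the D3 arrays the count was 12 with 2-nitrofluorene at 24 h, 2 and 6 with aflatoxin B1 at 24 h and 72 h, 0 and 1 with Wy-14643, 4 with NNK at 72 h, and 1, 1 and 2 in the controls of 2-nitrofluorene, methapyrilene and NNK. For aflatoxin B1 it was 6 and 5 against Wy-14643, 5 and 9 against clonidine and 5 against nifedipine. Without the high-actin arrays it was 16 with 2-nitrofluorene, 0 with Wy-14643 and 1 each with nifedipine and piperonyl butoxide at 24 h. At 72 h it was 5 with Wy-14643, 10 with NNK and 1 with nifedipine. It was 1 each for the time differences of 2-nitrofluorene and NNK and 2 for Wy-14643 minus nifedipine. In the controls of 2-nitrofluorene, methapyrilene and NNK it was 3, 1 and 5. Only the second aflatoxin B1 array at 24 h and the first at 72 h were left, so no count is given for that compound.

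With single arrays left out the count ranged from 0 to 4 with aflatoxin B1 and with Wy-14643 at 24 h, 0 to 1 with 2-nitrofluorene and 0 to 2 with clonidine at 24 h, 0 to 13 with aflatoxin B1 and 0 to 16 with Wy-14643 at 72 h, and was 0 throughout in the NNK controls. Between compounds it ranged from 0 to 3 and 1 to 6 for aflatoxin B1 minus Wy-14643 at 24 h and 72 h, 0 to 2 and 0 to 7 minus clonidine, 0 to 8 minus nifedipine, and 0 to 5 for Wy-14643 minus nifedipine. Of values that were not called, Psmb10 with 2-nitrofluorene at 24 h (-0.031) ranged from -0.336 to 0.163 with single arrays left out, Psmb8 with NNK at 72 h (0.007) from -0.088 to 0.137, and Psme4 with Wy-14643 at 24 h (0.817) from -0.382, without the third control, to 1.486. Apart from what fewer arrays or other probe sets tested bring by construction, the cause was not tested. With 3 arrays a group, the smallest difference called for a member against control was 0.422 on the log2 scale.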
